A study of Zea mays subsp. mays with 2 samples.

Results

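Of the 37398 transcribed loci listed for the maize genome, 12341 (33.0%) had no other within 10000 bp, and some of these were short. Short isolated loci are here the transcribed loci of the maize genome that span over 200 and at most 1000 bp from start to end and have no other listed locus, on either strand, within 10000 bp. They were chosen from their coordinates alone, and 1685 of the 37398 listed loci (4.51%) met the rule. The data are levels of polyadenylated RNA in the roots and in the shoots of plants of the inbred line B73, whose genome is the maize reference. Both tissues were harvested 14 days after germination from plants kept in a growth chamber, per the labels, and each is represented by 1 strand-specific library. There are no replicates, so every difference is one between these 2 libraries and has no replicate check and no p-value. The comparison set is the 10284 loci spanning over 1000 bp with the same isolation.

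The maize genome is large and consists mostly of transposable elements, and its genes lie singly or in small groups between long stretches of repeats. Gene density is higher toward the chromosome ends than around the centromeres. A short transcript that stands alone can come from a small gene with one or few exons, from a long intergenic noncoding RNA, from a transposable element, or from part of a longer transcript that was only partly assembled. In plants, long intergenic noncoding RNAs are known for short transcripts, low levels and expression in few tissues. The table gives no gene names, exons or coding status, so these kinds could not be told apart, and "intergenic" is used here only in the sense of lying apart from other listed loci. No marker gene could be used to check the tissue labels for the same reason.

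Isolation refers to the listed loci, all of which exceeded 1 FPKM (fragment numbers corrected for transcript length and library size) in at least 1 tissue. The identifiers are numbered along each strand in the order of the coordinates, in 37378 of 37378 steps between listed loci, and some numbers are missing from the list. Of the 1682 short isolated loci with a listed locus on both sides of their own strand, 639 (38.0%) had no missing number on either side, and the median had 1 missing number. Among the longer isolated loci, 4212 of 10268 (41.0%) had none. What stands behind a missing number cannot be read from the list, so isolation from transcription below its level was shown for none of the loci.

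A smaller share of short than of longer loci stood alone. Of all 8215 listed loci in this range of spans, 20.5% were isolated, against 37.7% of the 27257 loci spanning over 1000 bp. The short isolated loci had a median span of 620 bp, with quartiles of 396 and 811 bp. The nearest other locus lay at a median distance of 34215 bp, and 207 of the short isolated loci (12.3%) were over 100000 bp from it. The corresponding median distance for longer isolated loci was 40194 bp. The strands were nearly balanced, with 831 of the short isolated loci on plus and 854 on minus. The nearest locus was on the same strand for 933 of the 1685 (55.4%). The 6530 short loci that were not isolated had a median distance of 93 bp to the nearest listed locus.

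Most short isolated loci had low RNA levels. Their median level was 2.23 FPKM in roots and 2.75 in shoots. The longer isolated loci had medians of 11.7 FPKM in roots and 12.2 in shoots, and all listed loci had medians of 8.20 FPKM in roots and 8.91 in shoots. The lower and upper quartiles of the short isolated loci were 0.944 and 8.70 FPKM in roots, and 1.25 and 8.28 FPKM in shoots. On each of the 10 chromosomes both medians of the short isolated loci were under those of the longer ones. Short loci that were not isolated were similarly low, with medians of 2.12 FPKM in roots and 2.64 in shoots.

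In the tissue where it was higher, a short isolated locus stood between 1 and 2 FPKM in 457 cases (27.1%) and between 2 and 5 FPKM in 480 (28.5%). A further 253 (15.0%) lay from 5 to 10 FPKM, 345 (20.5%) from 10 to 50 FPKM, and 150 (8.90%) above that. Of the longer isolated loci, 7.32% fell in the lowest of these classes and 63.2% reached 10 FPKM, against 29.4% of the short ones. The plot of level classes shows this shift. Short transcripts collect few fragments at low FPKM, so counting error weighs most on these loci, and its size could not be assessed because the depth of the libraries is unknown.

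**Figure D1:**
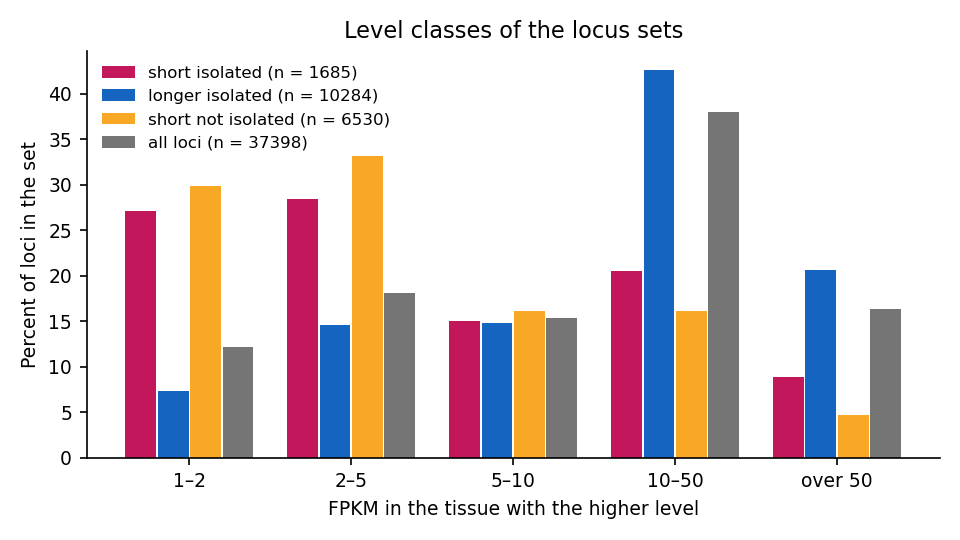
Percent of loci in each class of level (FPKM in the tissue where the locus is higher) for short isolated loci (n = 1685), longer isolated loci (n = 10284), short loci that are not isolated (n = 6530) and all listed loci (n = 37398). Both short sets pile up under 5 FPKM, and the longer isolated loci in the class from 10 to 50 FPKM.

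A small number of very abundant loci carried much of the signal of the set. The summed FPKM of the short isolated loci was 3.42% of the table's sum in roots and 2.66% in shoots. In roots the 2 most abundant of them held 25.4% of the set's sum and the 10 most abundant held 40.1%. In shoots the top 2 held 16.1% and the top 10 held 31.9%. For the longer isolated loci the top 10 held 8.74% in roots and 13.5% in shoots. Among the 10 most abundant of all listed loci, 2 short isolated loci appeared in roots and 0 in shoots.

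The most abundant in roots lay on chromosome 2, plus strand, from 127959950 to 127960704 (755 bp). Its level was 5407 FPKM in roots and 239 in shoots, a log2 ratio of roots over shoots of 4.50 after 1 FPKM was added to both levels, the scale used for every log2 ratio here. Close behind, on chromosome 1 from 31896751 to 31897513 (minus strand, 763 bp), a locus had 4865 FPKM in roots and 233 in shoots, a log2 ratio of 4.38. The nearest listed locus to it, 26.2 kb away, was at 4.20 FPKM in roots and 4.02 in shoots. The 2 most abundant loci in roots thus had over 200 FPKM in shoots as well, and over 20 times as much in roots. Next came, also on the minus strand of chromosome 1, the locus from 88848897 to 88849748, with 1356 FPKM in roots and 78.9 in shoots. The locus from 166576329 to 166577203 on the minus strand of chromosome 5 followed with 1105 FPKM in roots and 125 in shoots. The 4 loci highest in roots were thus all higher there than in shoots.

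In shoots the most abundant was a plus-strand locus of 720 bp on chromosome 5 from 177511677 to 177512396, with 8.81 FPKM in roots and 3049 in shoots. It is followed by P_XLOC_012783 (chromosome 3, given with the strongest shoot bias below). The third, on chromosome 6, minus strand, from 38086165 to 38086854, was abundant in both tissues, with 799 FPKM in roots and 960 in shoots, and was also the fifth in order in roots. The nearest locus to it, 13.7 kb away on the same strand, had 24.0 FPKM in roots and 190 in shoots. The locus from 7771309 to 7772076 on the minus strand of chromosome 9 had 14.8 FPKM in roots and 697 in shoots. The sixth highest in shoots, on chromosome 4, plus strand, from 9697965 to 9698851, had 402 FPKM in roots and 632 in shoots. Its nearest neighbour, 16.6 kb away on the minus strand and 877 bp long, was likewise abundant in both, with 440 FPKM in roots and 595 in shoots.

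A larger share of the short isolated loci than of all listed loci differed between the organs. A locus is called higher in a tissue when its level there was at least 1 FPKM and the log2 ratio corresponded to at least 4-fold. By this rule 118 short isolated loci (7.00%) were higher in roots, against 3.95% of all listed loci. In shoots 157 (9.32%) were higher, against 7.55% of all listed loci. Of the longer isolated loci, 506 (4.92%) were higher in roots and 843 (8.20%) in shoots. With 1 FPKM added, the remaining 1410 short isolated loci lay within 4-fold. Within 2-fold on this scale were 963 (57.2%), compared with 70.4% of the longer isolated loci. With 0.1 FPKM added instead, 259 short isolated loci (15.4%) were called higher in roots and 369 (21.9%) in shoots. Of the longer isolated loci, 7.48% were then called higher in roots and 11.8% in shoots. The median log2 ratio of the short isolated loci was -0.04, with quartiles of -0.96 and 0.77, and that of the longer ones 0.10, with quartiles of -0.45 and 0.55. The medians are close and the quartiles lie further apart in the short set. With a pseudocount of 5 FPKM, which shrinks the ratios of low loci, the order of the organs turned, with 52 short isolated loci higher in roots and 46 in shoots. The share higher in shoots was then 2.73%, under the 4.24% of the longer isolated loci. At 8-fold, 3.80% of short and 4.26% of longer isolated loci were higher in shoots, and longer loci limited to 5000 bp had 9.57%, above the 9.32% of the short ones.

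The ranking of the loci by level also matched less well between the organs. Spearman's rho between roots and shoots was 0.45 across the 1685 short isolated loci and 0.72 across the 10284 longer ones. Across the 6530 short loci that were not isolated it was 0.54. These values describe loci that share the same 2 libraries. The short set has lower levels, and their part in the smaller rho was not tested. At 1 FPKM or more, 943 short isolated loci (56.0%) were found in both tissues, against 85.8% of the longer isolated loci. Of the short loci that were not isolated, 60.9% were found in both. Another 314 (18.6%) reached this level in roots and not in shoots, and 428 (25.4%) in shoots and not in roots. Because levels near 1 FPKM are common in the short set, small differences decide many of these counts. The table listed 84 short isolated loci at 0 in roots and 40 at 0 in shoots. Those at 0 in roots had a median of 2.45 FPKM in shoots, and those at 0 in shoots a median of 1.75 FPKM in roots.

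**Figure D2:**
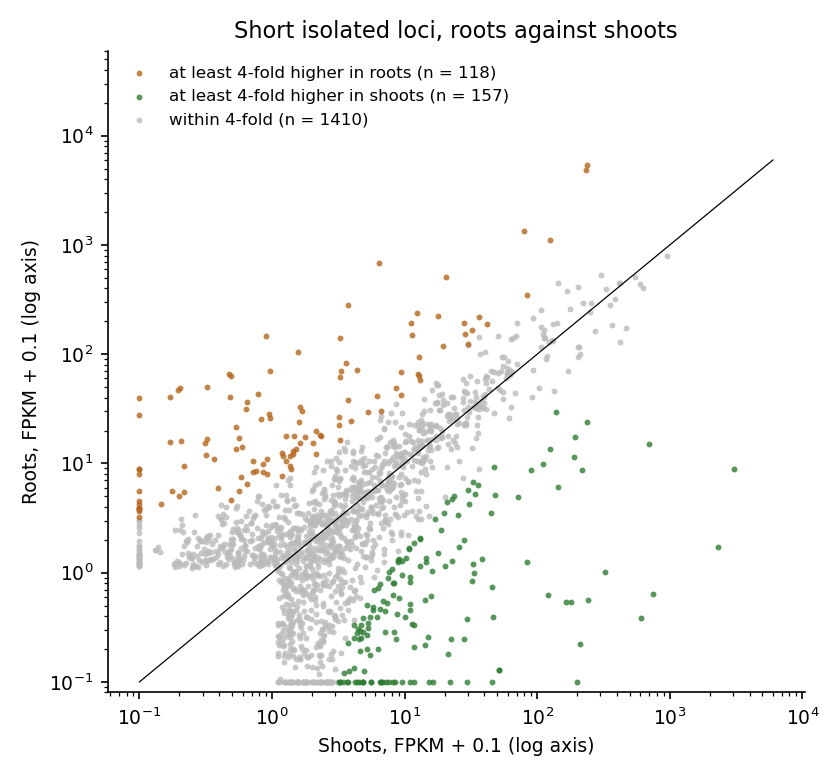
Level of each of the 1685 short isolated loci in roots (vertical axis) and shoots (horizontal axis), as FPKM + 0.1 on log axes, 1 point per locus, with the line of equal levels. The 118 loci called at least 4-fold higher in roots lie above the line and the 157 called higher in shoots below it. Calls were made with 1 FPKM added, so at low levels grey points (not called) can lie as far from the line as called ones. No point has both levels under 1 FPKM, because such loci are outside the list.

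By the rule, the called loci could not be the faintest of the set, because 1 FPKM is added to both levels. Their lowest level in the higher tissue was 3.16 FPKM for roots and 3.08 for shoots. The 118 loci higher in roots had a median of 22.0 FPKM in roots and 1.13 in shoots, and 56 of them were under 1 FPKM in shoots. The 157 loci higher in shoots had a median of 0.384 FPKM in roots and 10.9 in shoots, and 108 of them (68.8%) were under 1 FPKM in roots. Loci under 2 FPKM in their higher tissue cannot reach the 4-fold difference on a scale with 1 FPKM added, and none was called in any set.

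Set against longer loci of a like mean level, the short isolated loci had a larger share biased to roots. The difference for shoots was smaller, except from 2 to 5 FPKM, and varied between classes. For this the level of a locus was taken as the mean of both tissues on the log2(FPKM + 1) scale, turned back into FPKM, which does not favour the tissue where the locus is high. From 2 to 5 FPKM of mean level, 8.81% of 386 short isolated loci were higher in roots, against 7.39% of 1691 longer ones. From 5 to 10 FPKM the shares in roots were 14.6% of 198 short and 6.50% of 1631 longer loci. From 10 to 50 FPKM they were 9.49% of 253 short and 3.97% of 4106 longer loci, and above 50 FPKM 15.6% of 96 short and 3.85% of 1479 longer loci. Only from 1 to 2 FPKM was the share smaller in the short set, with 4.01% of 399 short and 5.78% of 952 longer loci.

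For shoots the shares by class of mean level stood closer together than for roots from 5 FPKM upward, but not from 2 to 5 FPKM. Among the shoot shares the gap was widest from 10 to 50 FPKM. From 1 to 2 FPKM the shares in shoots were 11.0% of short and 10.6% of longer isolated loci. From 2 to 5 FPKM they were 15.0% of short and 12.2% of longer isolated loci. From 5 to 10 FPKM they were 11.1% of short and 10.4% of longer ones. From 10 to 50 FPKM they were 10.7% of short and 6.79% of longer loci, and above 50 FPKM 6.25% of short and 5.81% of longer loci. Taking all loci with a mean level of 10 FPKM or more, 39 of 349 short isolated loci (11.2%) were higher in roots and 33 (9.46%) in shoots. Of the 5585 longer isolated loci at this level, 3.94% were higher in roots and 6.54% in shoots, and of all 17133 listed loci 3.44% were higher in roots and 6.55% in shoots. Loci are not replicates of a condition and the tissues have 1 library each, so these differences between sets carry no test.

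The shares depend on how the level is taken. With the level in the higher tissue, through which every called locus enters its class, 17.8% of the 495 short isolated loci at 10 FPKM or more were higher in roots and 17.0% in shoots. Of the 6501 longer isolated loci at that level, 6.14% were higher in roots and 9.95% in shoots. At 100 FPKM or more by the same measure, 22 of 94 short isolated loci (23.4%) were higher in roots, against 8.55% of longer isolated and 8.06% of all listed loci. In shoots 20 of the 94 (21.3%) were higher, near the 18.2% of longer isolated and 17.7% of all listed loci.

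**Figure D3:**
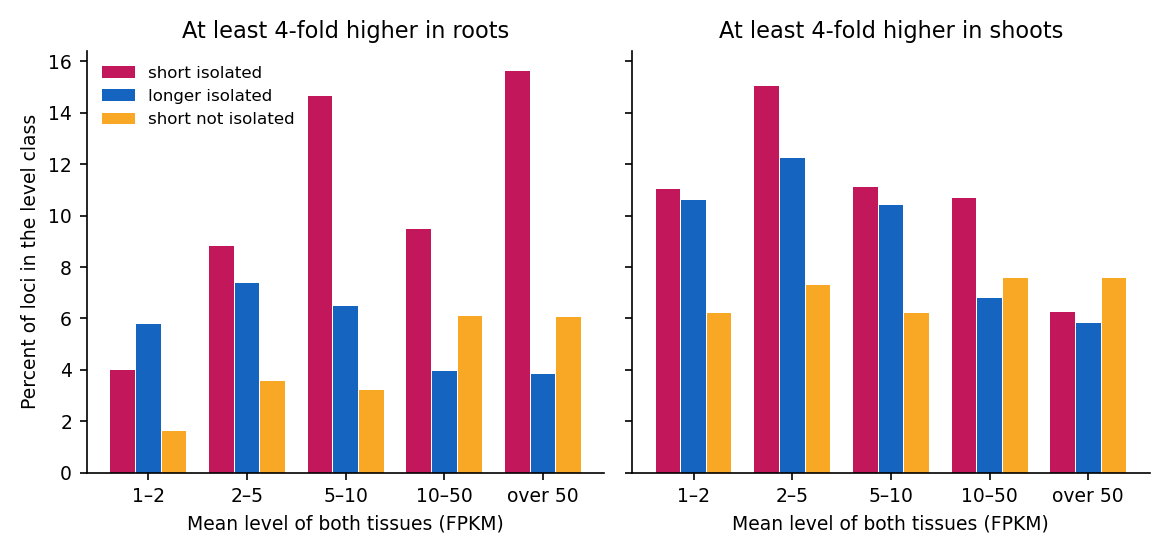
Percent of loci at least 4-fold higher in roots (left) and in shoots (right), by class of mean level of both tissues (FPKM), for short isolated, longer isolated and short loci that are not isolated. In roots the short isolated loci stand at 15.6% in the highest class, against 3.85% of the longer isolated loci, and in shoots at 6.25% against 5.81%.

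The bias differed by span within the short isolated set. Among the 100 loci of 200 to 500 bp with a mean level of 10 FPKM or more, 3 were higher in roots and 6 in shoots. Among the 249 of 500 to 1000 bp, 14.5% were higher in roots and 10.8% in shoots. In finer classes the share higher in roots was 2.50% at 200 to 400 bp, 9.09% at 400 to 600 bp, 13.3% at 600 to 800 bp and 16.1% at 800 to 1000 bp, each class including its upper bound. The finer classes hold 55 to 124 loci each, so few loci stand behind each share. Beyond the limit of 1000 bp the share higher in roots was 10.5% at 1000 to 1500 bp and 13.1% at 1500 to 2000 bp. The 4701 isolated loci spanning over 2000 bp were higher in roots in 2.45% of cases and in shoots in 5.62%, and the low shares of the longer set lay there. A large organ-biased share was therefore not particular to isolated loci of at most 1000 bp.

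Short loci with a neighbour within 10000 bp were compared within classes of span, because their median span at a mean level of 10 FPKM or more was 565 bp, against 718 bp for the short isolated loci. At 600 to 1000 bp and this level, 15.0% of 214 isolated loci were higher in roots, against 9.44% of 445 loci with a close neighbour. At 1000 to 2000 bp the shares in roots were 11.9% of isolated loci and 6.80% of the others. At 200 to 500 bp they were 3% of isolated loci and 3.15% of the others. In shoots the shares were 11.2% of isolated loci and 10.3% of the others at 600 to 1000 bp, and 11.4% of isolated loci and 11.1% of the others at 1000 to 2000 bp.

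**Figure D4:**
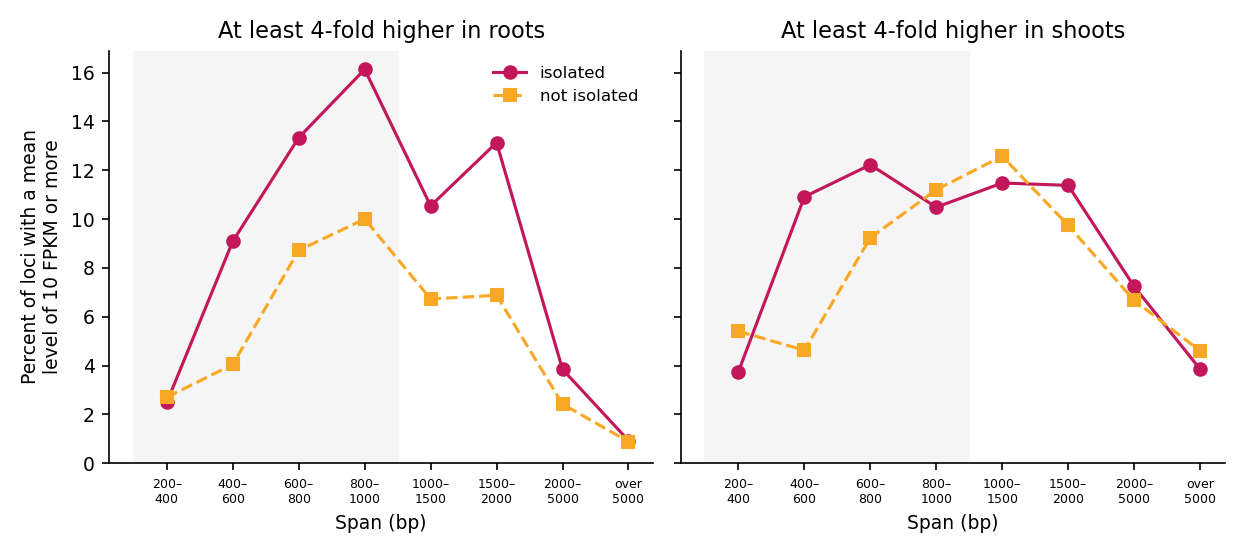
Percent of loci with a mean level of 10 FPKM or more that were at least 4-fold higher in roots (left) or in shoots (right), by genomic span in bp, for isolated loci (circles, solid line) and loci with a neighbour within 10000 bp (squares, dashed line). The grey area marks spans of 200 to 1000 bp. The isolated curve for roots is highest there at 16.1%, drops to 10.5% at 1000 to 1500 bp, stands at 13.1% at 1500 to 2000 bp and ends at 0.930% above 5000 bp.

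On either side of the rule's limits the medians were as follows. Isolated loci of 900 to 1000 bp (n = 218) had 3.40 FPKM in roots and 3.83 in shoots, and those of 1000 to 1100 bp (n = 239) had 4.20 FPKM in roots and 5.04 in shoots. Isolated loci of 200 to 250 bp (n = 100) had 3.45 FPKM in roots and 4.26 in shoots, and those of 150 to 200 bp (n = 164) had 4.56 FPKM in roots and 3.83 in shoots. All isolated loci of at most 200 bp (n = 372) had higher medians, with 7.82 FPKM in roots and 10.1 in shoots. Short loci whose nearest neighbour was 10000 to 11000 bp away (n = 44) had medians of 1.44 FPKM in roots and 1.54 in shoots. Those at 9000 to 10000 bp (n = 77) had 3.58 FPKM in roots and 3.48 in shoots. Over the whole set the level did not follow distance: from 10000 to 20000 bp the medians were 1.84 FPKM in roots and 2.40 in shoots, and from 50000 to 100000 bp they were 2.42 FPKM in roots and 2.85 in shoots. Beyond 100000 bp the 207 loci had medians of 1.78 FPKM in roots and 2.69 in shoots and a median log2 ratio of -0.46, and 10 (4.83%) were higher in roots and 25 (12.1%) in shoots. Of the longer isolated loci at this distance, 4.46% were higher in roots and 8.23% in shoots.

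The strongest root bias was that of P_XLOC_011393, a plus-strand locus of 849 bp on chromosome 3 from 130520350 to 130521198. Its level was 683 FPKM in roots and 6.29 in shoots, a log2 ratio of 6.55. The nearest listed locus, 71.3 kb away on the same strand and 1233 bp long, was also higher in roots, with 24.6 FPKM in roots and 0.186 in shoots. P_XLOC_024868, on chromosome 8, plus strand, from 10989825 to 10990619, followed with 148 FPKM in roots and 0.806 in shoots, a log2 ratio of 6.36. Its nearest locus, 50.5 kb away, was at 28.5 FPKM in roots and 22.5 in shoots. A further short isolated locus 115 kb downstream on the same strand, from 11105498 to 11106013, had 39.3 FPKM in roots and was listed at 0 in shoots.

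Of the next 6 in root bias, log2 ratios ran from 5.94 down to 5.40. The first of these 6, on chromosome 10, minus strand, from 138831642 to 138832507, had 284 FPKM in roots and 3.62 in shoots. Its nearest locus, 23.0 kb away on the same strand and 817 bp long, was more abundant and biased the same way, with 1992 FPKM in roots and 21.2 in shoots. The 2 on chromosome 9 were neighbours in the order of the set. The one from 63685222 to 63685530, on the plus strand, had 47.3 FPKM in roots and 0.0954 in shoots, and the one from 63895558 to 63896461, on the same strand, had 63.1 FPKM in roots and 0.388 in shoots. They lay 210 kb apart, and the locus nearest to each was not called. The others were on chromosome 7 from 28792256 to 28793032 (65.3 FPKM in roots, 0.371 in shoots), chromosome 5 from 192530094 to 192530834 (49.2 FPKM in roots, 0.102 in shoots) and chromosome 3 from 47327913 to 47328802 (104 FPKM in roots, 1.48 in shoots). In each of these 3 cases the nearest locus was within 2-fold between the tissues.

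The strongest shoot bias reached further. P_XLOC_012783, on chromosome 3, plus strand, from 223452808 to 223453587 (780 bp), had 1.61 FPKM in roots and 2306 in shoots, a log2 ratio of -9.79. The locus nearest to it on the same strand, 45.6 kb away and 1028 bp long, had 2.22 FPKM in roots and 2966 in shoots. M_XLOC_019982, on chromosome 6, minus strand, from 1373159 to 1374087 (929 bp), had 0.540 FPKM in roots and 747 in shoots, a log2 ratio of -8.92. Its nearest locus lay 28.3 kb away on the same strand, spanned 1250 bp, and had 0.914 FPKM in roots and 437 in shoots. Both loci thus had a neighbour on their own strand with the same bias. Whether reads were divided between similar copies was not tested.

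The next 6 in shoot bias had log2 ratios of -8.88 to -7.38, and 4 of them lay on the plus strand of chromosome 5. The locus from 28307396 to 28307950 had 0.286 FPKM in roots and 604 in shoots. The second on this chromosome was the most abundant of the set in shoots, given above, with a log2 ratio of -8.28. The third, from 192613610 to 192614489, was listed at 0 in roots and had 200.6 FPKM in shoots. The fourth, from 178943586 to 178944477, had 0.123 FPKM in roots and 209 in shoots, and its nearest locus, 18.0 kb away and 803 bp long, had 0.122 FPKM in roots and 64.3 in shoots. The remaining 2 were on chromosome 8 from 5997392 to 5998182 (0.914 FPKM in roots, 327 in shoots) and chromosome 2 from 90891226 to 90891721 (0.459 FPKM in roots, 242 in shoots). The locus nearest to the one on chromosome 2 was 454 kb away. At 32-fold or more on this scale, 0.772% of short isolated, 0.321% of longer isolated and 0.246% of all listed loci were higher in roots. In shoots 1.01% of short isolated loci were this much higher, under the 1.46% of longer isolated loci and near the 1.05% of all listed loci.

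At the other extreme some abundant short isolated loci had equal levels. On chromosome 8, a plus-strand locus of 302 bp from 121361608 to 121361909 had 34.8 FPKM in roots and 34.8 in shoots. The shortest of the 3, with 203 bp on the minus strand of chromosome 4 between 198710897 and 198711099, had 131 FPKM in each tissue. A longer plus-strand locus of chromosome 4 from 117317668 to 117318564 had 10.3 FPKM in each. The most isolated locus of the set, on chromosome 3, plus strand, from 118962055 to 118962971, was 672 kb from the nearest listed locus and had 30.6 FPKM in roots and 18.2 in shoots. The second, on chromosome 4, minus strand, from 111169522 to 111170263, was 640 kb from the nearest and had 2.90 FPKM in roots and 3.29 in shoots. The first of these stood well above the median level of the set and the second near it.

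A minority of called loci had a nearest neighbour with the same bias, and the share was larger than among the nearest neighbours of the set in general. Of the 118 loci higher in roots, 13 (11.0%) had a nearest locus that was also higher in roots, against 4.63% of the nearest loci of all 1685, and 12 had one higher in shoots. Of the 157 higher in shoots, 31 (19.7%) had a nearest locus higher in shoots, against 10.4% over the set, and 4 had one higher in roots. The longer isolated loci showed the same, as 13.0% of those higher in roots had a nearest locus with that bias, against 4.44% over their set, and 14.2% of those higher in shoots, against 8.35%. Over all 1685 loci the log2 ratios of a locus and its nearest neighbour had a Spearman's rho of 0.18, and 0.11 over the longer isolated loci. Some loci are each other's nearest neighbour, so these pairs are not independent. In 13 cases, short isolated loci with the same bias followed each other along a chromosome within 250 kb, 8 of them higher in roots and 5 in shoots. Some loci were part of 2 of these cases. All neighbouring loci within this distance were not counted, so the 13 cases have no share to be read against. Among the 13, a pair on the minus strand of chromosome 2 had identical values and spans. The loci from 145426590 to 145427364 and from 145513197 to 145513971, both of 775 bp, each had 0.0278 FPKM in roots and 51.7 in shoots. These were the only 2 short isolated loci with the same values in both tissues. Whether the same reads were counted at both places was not tested, as no sequence of this build was used here.

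Along the chromosomes the short isolated loci were spread evenly. Position was measured as the distance from the nearer outermost listed coordinate, in percent of the way to the middle of the listed coordinates, so that 0 is an end and 100 the middle. The share of short isolated loci in 5 equal zones from end to middle was 20.3%, 19.6%, 20.2%, 20.2% and 19.6%. The longer isolated loci declined from 23.8% in the outermost zone to 14.9% in the innermost, and all listed loci from 33.0% to 12.0%. The median position of the short isolated loci was 50.3, against 42.9 for the longer isolated and 34.3 for all listed loci. It was nearer the middle than that of the longer isolated loci on 10 of 10 chromosomes. Short isolated loci accordingly made up 2.77% of all listed loci in the outermost zone and 7.40% in the innermost, and 11.9% of the isolated loci in the outermost and 17.0% in the innermost. Isolation by a fixed distance is itself easier to reach where loci are sparse. Per 10 Mb of listed length the chromosomes held between 7.02 short isolated loci on chromosome 7 and 9.27 on chromosome 9.

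Level and bias varied with position. The medians in the outermost zone were 2.85 FPKM in roots and 3.11 in shoots, and in the innermost 1.97 FPKM in roots and 2.49 in shoots. The share higher in roots was 8.48%, 6.34%, 10.9%, 2.64% and 6.65% from the outermost to the innermost zone. The share higher in shoots was 7.60%, 9.97%, 8.53%, 12.6% and 7.85%. Over all zones together, 3.95% of all listed loci were higher in roots and 7.55% in shoots. Shares of other loci are given for 1 zone only. Whether the variation is particular to the short set can therefore not be read here. The zone from 60 to 80 had 9 of its 341 loci higher in roots and 43 higher in shoots. It held more loci higher in shoots than in roots on 9 chromosomes and equal numbers on 1. The zone was picked for its uneven calls, so this count by chromosome is no separate support. The longer isolated loci in the same zone were higher in roots in 5.12% of cases and in shoots in 9.69%, and had more shoot than root calls on 10 of 10 chromosomes. Without chromosome 2, 10.7% of short and 9.80% of longer isolated loci in this zone were higher in shoots. In roots the shares without it were 2.27% of short and 5.30% of longer isolated loci. There was no steady trend toward the middle for either organ, and the zones were not tested against each other.

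**Figure D5:**
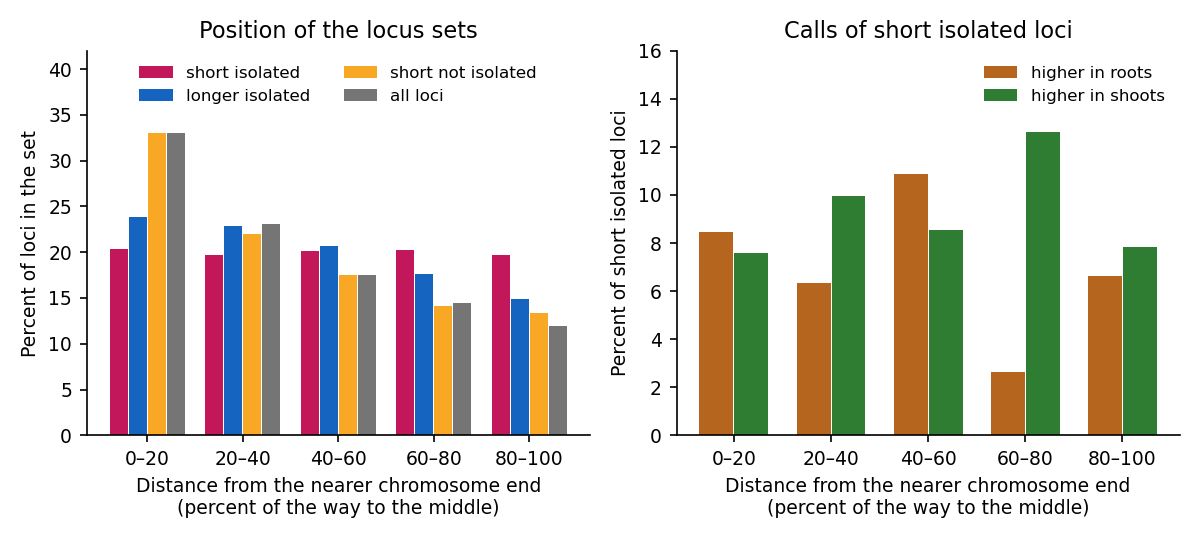
Left, percent of each locus set in 5 classes of distance from the nearer chromosome end (0 is an end and 100 the middle); right, percent of short isolated loci at least 4-fold higher in roots and in shoots in the same classes. The short isolated loci hold between 19.6% and 20.3% in each class, while all listed loci fall from 33.0% to 12.0%, and the class from 60 to 80 has 2.64% higher in roots and 12.6% in shoots.

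Chromosome 2 carried the most shoot-biased short isolated loci. Of its short isolated loci, 19 (9.45%) were higher in roots and 33 (16.4%) in shoots, while the other chromosomes ranged from 4.14% on chromosome 9 to 12.1% on chromosome 7 for shoots. Its longer isolated loci showed no such share, with 8.75% higher in shoots. The 33 loci lay between 3263989 and 230698215, with 21 plus-strand and 12 minus-strand loci. Their levels had a median of 0.243 FPKM in roots and 11.6 in shoots, and 20 of them reached 10 FPKM. The pair with identical values given above is among the 33 loci. Without chromosome 2, 6.67% of the short isolated loci were higher in roots and 8.36% in shoots. The longer isolated loci without that chromosome were higher in shoots in 8.13% of cases. Leaving out chromosome 2 thus narrowed the difference in shoots between short and longer isolated loci, taken over all levels. That was bound to follow, because this chromosome was picked for its high share. At a mean level of 10 FPKM or more the shares without it were 8.77% of short and 6.30% of longer isolated loci higher in shoots. The share higher in roots exceeded that of the longer isolated loci on 6 of 10 chromosomes, and that higher in shoots on 7 of 10. More loci were higher in shoots than in roots on 7 chromosomes, and fewer on chromosomes 1, 8 and 9. On chromosome 1, 24 of 250 short isolated loci were higher in roots and 18 in shoots.

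By strand, 8.06% of plus-strand and 5.97% of minus-strand short isolated loci were higher in roots, and in shoots 9.87% on plus and 8.78% on minus were called. Of all listed loci, 3.91% on plus and 3.98% on minus were higher in roots, and 7.69% on plus and 7.40% on minus in shoots. Their medians were 2.44 FPKM in roots and 2.89 in shoots on the plus strand, and 2.05 FPKM in roots and 2.66 in shoots on minus. Short isolated loci with no missing identifier number beside them had medians of 2.36 FPKM in roots and 2.95 in shoots, with 6.10% higher in roots and 10.2% in shoots. Those with a missing number had 2.21 FPKM in roots and 2.67 in shoots, with 7.57% higher in roots and 8.82% in shoots. Of the longer isolated loci with no missing number, 5.13% were higher in roots and 7.72% in shoots. With a missing number, 4.74% of the longer ones were higher in roots and 8.55% in shoots.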

How the data were processed

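Polyadenylated RNA from roots and shoots was sequenced in 1 strand-specific single-end library per tissue, and the tissue label defined the groups. Levels were deposited by the authors as FPKM, with 1 row per locus. The submitters' processing notes name TopHat, Cufflinks and Cuffdiff, with no version or setting. The header places all coordinates on B73 RefGen_v2. The lowest level in the higher tissue was 1.00 FPKM. FPKM of short loci depends strongly on the assumed fragment length. The depth is unknown, so no counting interval is given.

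Span is end minus start plus 1, and the distance to the nearest locus is the difference between the facing coordinates. Log2 ratios are roots over shoots with a pseudocount of 1 FPKM. Loci carry no gene names: 0 identifiers matched the RefSeq table of assembly Zm-B73-REFERENCE-NAM-5.0, whose coordinates and any sequence were not used. With 1 library per tissue no test was made. Identifiers are printed for the 2 loci with the largest and the 2 with the smallest log2 ratio among loci that reached 10 FPKM. By position follow the next 6 in each direction, the 6 highest per tissue, the 2 most isolated and the 3 most equal among loci at 10 FPKM or more in both tissues. The nearest neighbours, the pairs within 250 kb, chromosome 2 and the identical pair were chosen after their values were seen. The set, its classes and comparisons were chosen with earlier results of these data known. The rules were tested on simulated data. Classing loci by their mean level, in place of the level in the higher tissue, was chosen after seeing the data. Alternatives covered the pseudocount, fold, filter, scaling, isolation, span and detection. Computations used Python 3.11.15, pandas 2.3.3, NumPy 2.4.6 and SciPy 1.17.1.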

Additional observations from a re-analysis of the deposited data

How the results depend on the processing

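Short isolated loci called higher numbered 118 for roots and 157 for shoots. With 0.1 FPKM as the pseudocount they were 259 in roots and 369 in shoots, with 5 FPKM 52 in roots and 46 in shoots, and at 2-fold 317 in roots and 405 in shoots. At 8-fold they numbered 53 in roots and 64 in shoots, and at spans up to 500 bp 24 in roots and 49 in shoots. Root calls outnumbered shoot calls only with 5 FPKM among the 15 settings that bear on the calls. Outside these settings they also did so at a mean level of 10 FPKM or more, with 39 in roots and 33 in shoots. Longer isolated loci called higher numbered 506 in roots and 843 in shoots. With 0.1 FPKM 769 were higher in roots, with 5 FPKM 225 in roots and 436 in shoots, at 2-fold 1411 in roots and 1630 in shoots, and at 8-fold 192 in roots and 438 in shoots. These counts move with the threshold or the set size by construction. The share higher in roots was larger for short than for longer isolated loci in 14 of the 15 settings, the exception being spans up to 500 bp with 3.96% of short and 4.92% of longer loci. For shoots it was larger in 11, the exceptions being spans up to 500 bp (8.09% of short, 8.20% of longer), longer loci limited to 5000 bp (9.32% and 9.57%), a pseudocount of 5 FPKM (2.73% and 4.24%) and 8-fold (3.80% and 4.26%).

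With loci at 5 FPKM or more only, medians were 10.4 FPKM in roots and 9.61 in shoots for short isolated loci, and 18.2 FPKM in roots and 18.1 in shoots for longer ones. Median log2 ratios were then 0.13 for short, a change of sign, and 0.15 for longer loci. Scaling the libraries to an equal median moved the longer loci to 11.3 FPKM in roots and a log2 ratio of 0.047. Median positions of short and longer isolated loci were 46.4 and 40.3 with 5000 bp of isolation, 53.3 and 46.2 with 20000 bp, and 43.5 and 37.9 with same-strand isolation, where the longer loci had 12.6 FPKM in shoots. The median of short isolated loci in roots was 1.98 FPKM at spans up to 500 bp and 2.49 FPKM above. Longer loci limited to 5000 bp had 9.25 FPKM in roots and 9.64 in shoots. At 5 FPKM, 23.4% of short and 61.1% of longer isolated loci were detected in both tissues.

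Keeping loci with no missing number beside them, chosen after seeing the data, left 639 short loci, with 39 higher in roots and 65 in shoots, at a median position of 45.9. It left 4212 longer ones, with 216 higher in roots and 325 in shoots, 12.8 FPKM in roots, a log2 ratio of 0.12, 86.8% in both tissues and a position of 39.6. Ignoring loci of at most 200 bp in the isolation, also chosen after seeing the data, moved none of the 14 main results, and neither did leaving out chromosome 2, likewise chosen after seeing the data, with 99 short loci higher in roots and 124 in shoots. Under all settings, 89 values of these results stayed close and 47 moved. Close means within 1.5 times for counts and within the 95% interval for medians and shares, which takes loci as independent. No paired analysis was possible because there is 1 library of each tissue, which also precludes leaving out a library.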
